A study of Mus musculus with 2 samples.

Results

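The unfolded protein response and the integrated stress response were followed through 35 genes, which were chosen by name from a count table of 49492 genes. All 35 were found in the table, and all 35 were among the 19233 genes that had at least 10 reads summed over both libraries. The members comprised 5 sensors and transcription factors, 11 chaperones and lectins of the endoplasmic reticulum (ER), 7 genes of oxidative folding and translocation, 7 genes of ER-associated degradation and 5 target genes of Atf4.

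The study asked how macrophages act on mammary epithelium. Basal cells were sorted by flow cytometry from the mammary glands of adult female mice of WT genotype and grown in a three-dimensional gel as primary cells. The ctrl library came from cells labelled with no treatment, and the M2 library came from cells co-cultured with M2 macrophages for 11 to 14 days. The data statement of the study calls both samples basal colonies, so each library held whatever cells the colonies had formed. By the methods of the study, colony culture in the gel could end before day 11 or last to day 14. The culture time of this ctrl library itself is not given in the sources used here, so whether both were cultured equally long is not known. The macrophages, as the methods of the study describe, were derived from bone marrow, induced to an M2-like state and kept in a trans-well insert, so they shared medium but not gel with the basal cells. How many mice were pooled for each library is not given in the sources used here. Each group held 1 library, so no difference below has a replicate check and no p-value is given. A gene was called where it was at least 2-fold apart, and each interval is a 95% Clopper-Pearson interval that covers counting error only.

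Proteins that are secreted or sit in membranes fold in the ER. When unfolded chains build up there, membrane proteins signal: Ern1 (IRE1) splices the Xbp1 mRNA, Atf6 is cut to release a transcription factor, and Eif2ak3 (PERK) phosphorylates the translation factor eIF2 alpha. Phosphorylated eIF2 alpha slows most translation but favours that of Atf4, and this last step is shared with kinases that sense amino acid shortage, viral RNA or haem shortage, hence the name integrated stress response. In the mammary gland Xbp1 and the ER chaperones are known from the secretory epithelium that makes milk. Gene-level read counts show neither Xbp1 splicing nor protein phosphorylation nor Atf6 cleavage.

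A total of 26912610 reads were assigned to genes in ctrl and 29413844 in M2, and 4.83% and 4.11% of them were mitochondrial. The basal keratin genes Krt5 and Krt14 had 56383 and 81991 reads in ctrl and 83619 and 68968 in M2, and Myh11 and Acta2, of the contractile apparatus, had 28173 and 24752 reads in ctrl and 28442 and 26655 in M2. Of the 6 basal markers 1 was called, the oxytocin receptor gene Oxtr, which fell from 8324 to 1920 reads (log2 fold difference -2.18). The summed basal level was 7466 CPM (reads scaled to library size alone) in ctrl and 7493 CPM in M2. By flow cytometry of such cultures, the study found mostly luminal cells in both control and M2 colonies. The basal share was small in both and larger in M2. Luminal markers differed between the libraries: 5 of 8 were at least 2-fold lower in M2 (median log2 fold difference -1.35), among them Kit with 15110 and 4973 reads. The luminal keratins were not called, with log2 fold differences of 0.21 for Krt8, -0.05 for Krt18 and -0.78 for Krt19. The summed level of the luminal list was 3183 CPM in ctrl and 2410 CPM in M2. Of 7 fibroblast markers, 4 were at least 2-fold lower in M2 and 1 (Dcn) at least 2-fold higher. Lum, among those lower, had only 10 and 3 reads, and its interval of -4.31 to 0.15 held 0. The 4 with the most reads were Col1a2 (4463 and 1457 reads, -1.68), Col1a1 (2057 and 1097 reads, -0.98), Col3a1 (1612 and 276 reads, -2.61) and Pdgfra (607 and 822 reads, 0.37). The summed fibroblast level was 330 CPM in ctrl and 134 CPM in M2. Of 11 macrophage markers, 7 were at or under 3 reads in ctrl and 7 in M2, and Adgre1, Tyrobp, Fcer1g and Chil3 had 0 reads in both. The sets of 7 differed, as Ctss had 5 and 2 reads and Mrc1 had 1 and 5. Higher counts were found for Arg1 with 1507 and 2090 reads, Cd68 with 170 and 165, and Csf1r with 94 and 92. The summed macrophage level was 64.8 CPM in ctrl and 81.8 CPM in M2, most of it from Arg1. Of 8 markers of B and plasma cells, the cells best known for Xbp1, 5 were at or under 3 reads in each library. In bulk RNA, fewer cells of a type and less RNA per cell cannot be told apart, and the part of these cell types in the differences below was not tested.

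Several members share short promoter sequences through which the response is known to act. The ER stress response element (ERSE), read by Atf6 and Xbp1 together with NF-Y, is CCAAT, then 9 unspecified bases, then CCACG. It was searched on both strands of the 250 bases before the RefSeq gene start on GRCm38.p6, for which 31 of the 35 members had an entry. Atf6, Hyou1, Manf and Derl1 had none, and Ero1l and Ero1lb were matched through their newer names Ero1a and Ero1b. The ERSE letters stood before 10 of the 31 members (32.3%) and before 35 of all 27025 genes with an entry (0.13%). The members were chosen as known genes of this response, so these shares are a description and not a test. They are shown because no other promoter element searched stood before as many members. CCAAT and CCACG are in capitals, and each copy is read 5′ to 3′ in the direction of CCAAT:
Calr (chr8:84847070-84847098, plus strand): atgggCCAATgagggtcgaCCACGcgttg
Canx (chr11:50325795-50325823, minus strand): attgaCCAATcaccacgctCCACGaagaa
Creld2 (chr15:88819515-88819543, minus strand): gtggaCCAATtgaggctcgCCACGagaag
Derl3 (chr10:75893237-75893265, minus strand): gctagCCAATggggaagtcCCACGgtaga
Dnajc3 (chr14:118937822-118937850, plus strand): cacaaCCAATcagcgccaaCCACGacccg
Ero1lb (chr13:12565677-12565705, minus strand): ggcggCCAATgaggcgggaCCACGaggcc
Hsp90b1 (chr10:86705528-86705556, plus strand): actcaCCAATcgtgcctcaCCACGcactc
Hsp90b1 (chr10:86705633-86705661, minus strand): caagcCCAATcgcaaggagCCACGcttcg
Hspa5 (chr2:34772020-34772048, plus strand): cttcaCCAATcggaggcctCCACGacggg
Pdia6 (chr12:17266486-17266514, plus strand): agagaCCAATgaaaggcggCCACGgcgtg
Syvn1 (chr19:6046527-6046555, plus strand): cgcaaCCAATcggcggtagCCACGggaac

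Of these 11 copies, 6 lay on the strand of their gene and 5 on the opposite strand, between 26 and 212 bases before the start. The unspecified middle was rich in G and C, from 66.7% to 77.8%, and it held GGC in 5 copies. Hsp90b1 was the member with 2 copies. By role, the 10 members were Hspa5, Hsp90b1, Dnajc3, Creld2, Calr and Canx among the chaperones, Pdia6 and Ero1lb in oxidative folding, and Syvn1 and Derl3 in degradation.

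The 3 other elements searched were ERSE-II (ATTGG, 1 base, CCACG), the core of the unfolded protein response element UPRE (TGACGTG) and the C/EBP-ATF element (TGATG, 1 base, AA) through which Atf4 acts. ERSE-II stood before Herpud1 alone among members and before 10 of all genes (0.037%). The UPRE core stood before Hspa5 alone among members and before 499 of all genes (1.85%). The C/EBP-ATF element stood before Asns, Chac1 and Herpud1 and before 1056 of all genes (3.91%). Hspa5 and Herpud1 each carried 2 kinds of element, and their promoters are printed for that reason, with every match in capitals:
Hspa5 (chr2:34771925-34772050, plus strand): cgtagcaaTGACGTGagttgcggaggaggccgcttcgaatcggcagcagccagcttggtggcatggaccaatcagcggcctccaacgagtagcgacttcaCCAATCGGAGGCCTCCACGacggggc
Herpud1 (chr8:94386309-94386394, plus strand): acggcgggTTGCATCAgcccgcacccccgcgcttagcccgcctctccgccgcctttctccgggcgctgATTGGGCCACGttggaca

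In the Hspa5 stretch, the first run of capitals is the UPRE core and the next is the ERSE. In the Herpud1 stretch, the first run is the C/EBP-ATF element on the opposite strand and the next is ERSE-II. A match is a description of letters and not of binding. In all, 13 of 31 members held at least 1 of the 4 elements and 18 held none. Xbp1 and Ero1l were among the 18.

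**Figure D1:**
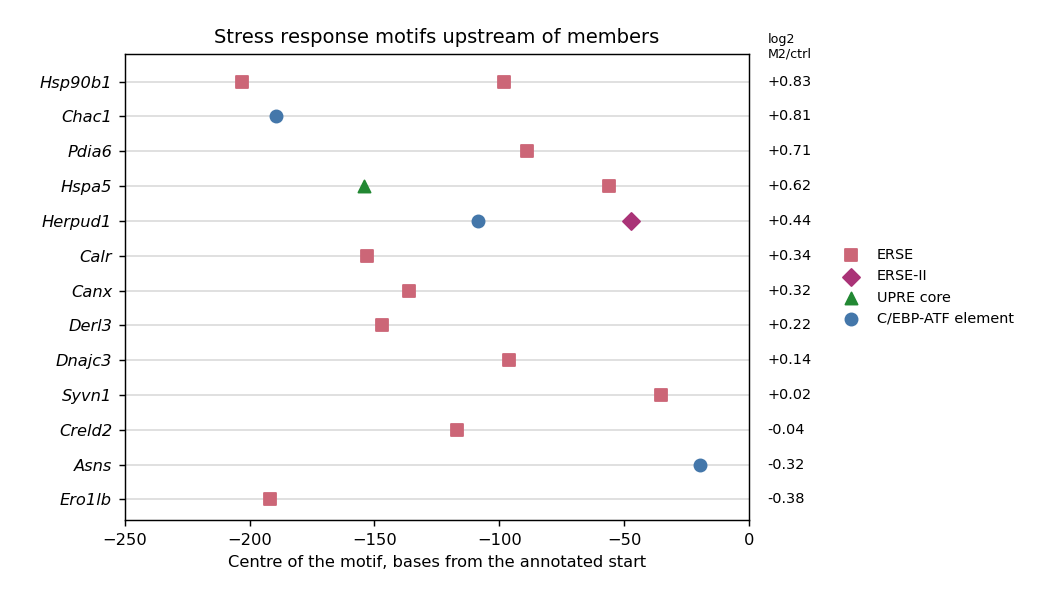
Positions of the 4 promoter elements in the 13 members that hold at least 1. The x axis gives the distance of the element's centre from the gene start in bases, each marker is 1 match coloured by element, and the number at the right is the member's log2 fold difference, M2 over ctrl. The ERSE copies lie between 26 and 212 bases before the start, and the values of their genes run from -0.38 for Ero1lb to 0.83 for Hsp90b1.

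Of the 35 members, Xbp1 and Ero1l rose at least 2-fold in M2, and none fell 2-fold. That is 5.71% of the members, against 9.53% of all genes tested that were at least 2-fold higher and 7.82% that were at least 2-fold lower. All members also reached 1 CPM in both libraries, and of the 14590 genes that did, 5.46% were at least 2-fold higher and 4% at least 2-fold lower. The share of members at least 2-fold higher was thus near that of the genes at this level. At a lower bar of 1.5-fold, 7 members (20%) were higher and 0 were lower, beside 16.5% and 14.8% of all genes tested, and beside 11.5% and 9.91% of the genes with 1 CPM in both libraries. The 5 members between the bars were Hsp90b1, Sec61b, Chac1, Pdia6 and Hspa5, and the next below the lower bar were Manf and Atf4.

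The sign of the small differences was less even than these counts. The log2 fold difference was above 0 in 27 of 35 members and below 0 in 8, whereas 49.7% of all genes tested were above 0. Scaling by the library total lowered every value by 0.06, and Dnajb11, Sdf2l1, Syvn1, Edem1 and Ppp1r15a then lay below 0. The counting interval lay wholly above 0 for 19 members, wholly below 0 for 6, and held 0 for 10. The median of the members was 0.22, beside -0.0032 for all genes tested, whose middle 50% lay between -0.32 and 0.35. Without Ero1l the median was 0.18, and without Ero1l and Xbp1 it was 0.14. Together the members took 0.715% of the ctrl reads and 0.934% of the M2 reads. Calr alone took 0.182% and 0.221%.

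**Figure D2:**
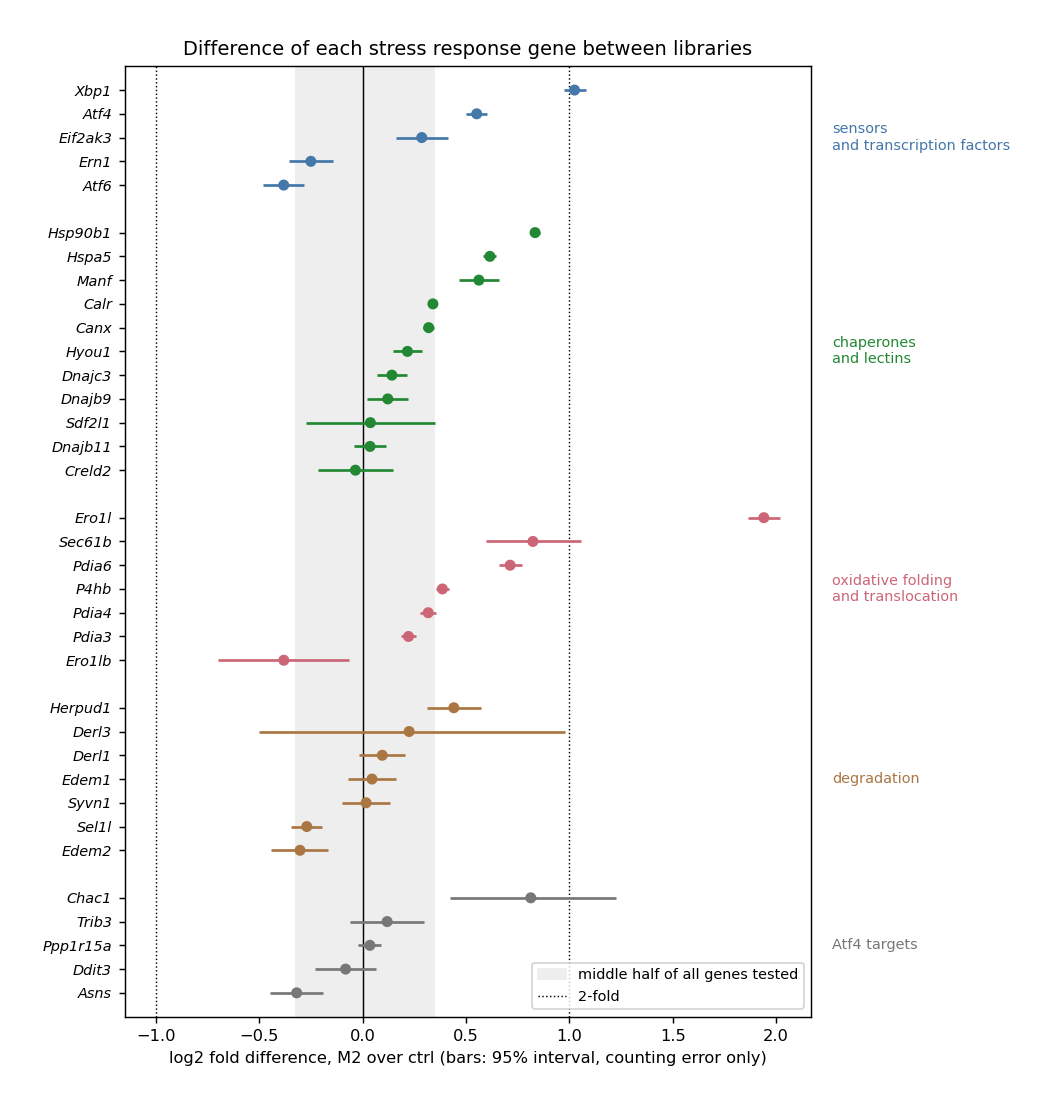
Log2 fold difference of each of the 35 members, M2 over ctrl, with members ordered by role. Points are the values, bars the 95% counting intervals of 1 library against 1 library, the grey band the middle 50% of all genes tested (-0.32 to 0.35) and dotted lines the 2-fold limits. Ero1l at 1.94 and Xbp1 at 1.02 lie past the upper limit, and no member reaches the lower one.

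Among the sensors and transcription factors, the factor genes Xbp1 and Atf4 stood apart from the genes that encode the sensors. Xbp1, the transcription factor whose mRNA is spliced by Ern1, had 4191 reads in ctrl and 8947 in M2, or 47.0 and 95.6 RPKM (CPM per kilobase of gene length). It rose, with a log2 fold difference of 1.02 (interval 0.97 to 1.08), which is just past the 2-fold limit. With the library total in place of TMM scaling the value was 0.97, and the call was lost. The gene lies at chr11:5520659-5525893 on GRCm38.

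Atf4, the factor translated when eIF2 alpha is phosphorylated, had 5153 and 7924 reads, or 109 and 159 RPKM. Its log2 fold difference was 0.55 (0.50 to 0.60), under the limit. The 3 sensor genes were expressed at far lower levels per length. Eif2ak3, the PERK kinase, was at 5.65 RPKM in ctrl and 6.89 RPKM in M2, a log2 fold difference of 0.29 (0.16 to 0.41), and its counts may include reads of Gm43292, which shares 485 exon bases on the opposite strand. Ern1, the kinase and RNase IRE1, was at 7.04 and 5.91 RPKM (log2 fold difference -0.25, interval -0.36 to -0.15). Atf6, the factor held in the ER membrane, was at 7.09 and 5.44 RPKM (-0.38, interval -0.48 to -0.28). The ratio of the RPKM of Xbp1 to that of Ern1 was 6.68 in ctrl and 16.2 in M2.

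The ER chaperones and lectins held the most reads of any role, and none of the 11 was called. The log2 fold difference was above 0 in 10 of them, with Creld2 the exception and with Dnajb11 and Sdf2l1 below 0 under library-total scaling, and their median was 0.22. Their summed level was 4436 CPM in ctrl and 6162 CPM in M2, a log2 fold difference of 0.47 that was carried by the most abundant genes. Hsp90b1 (GRP94, the ER form of Hsp90) had 25973 reads in ctrl and 48574 in M2, or 235 and 418 RPKM. Its log2 fold difference of 0.83 (0.81 to 0.86) was the highest of this role. Exons of Gm25745 and Gm15344 lie within it on the same strand and those of 1810014B01Rik overlap it on the opposite strand, so its count may be shared with them. Hspa5 (BiP), the Hsp70 of the ER that also holds the sensors inactive, had 13533 and 21750 reads, or 117 and 178 RPKM, and a log2 fold difference of 0.62 (0.58 to 0.65).

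Manf, a small ER protein that is secreted under stress, had 1471 and 2279 reads and a log2 fold difference of 0.56 (0.47 to 0.66). Its exons overlap those of 3 other genes, of which Vprbp is the most highly counted. Calr and Canx, the lectins that hold newly glycosylated proteins for folding, had nearly equal values. Calr was the member with the highest level, at 618 RPKM in ctrl and 782 RPKM in M2, with a log2 fold difference of 0.34 (0.32 to 0.36). Canx was at 164 and 205 RPKM, with a log2 fold difference of 0.32 (0.29 to 0.35).

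The nucleotide exchange factor Hyou1 and the J-domain proteins that work with Hspa5 lay closer to 0. Hyou1 had 2976 and 3628 reads and a log2 fold difference of 0.22 (0.15 to 0.29). Dnajc3, which also inhibits PERK, had 2839 and 3285 reads (0.14, interval 0.07 to 0.21), and Dnajb9 had 1557 and 1777 reads (0.12, interval 0.02 to 0.22). The intervals of Dnajb11 (2764 and 2972 reads, 0.04), Sdf2l1 (169 and 182 reads, 0.04) and Creld2 (502 and 514 reads, -0.04) held 0.

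**Figure D3:**
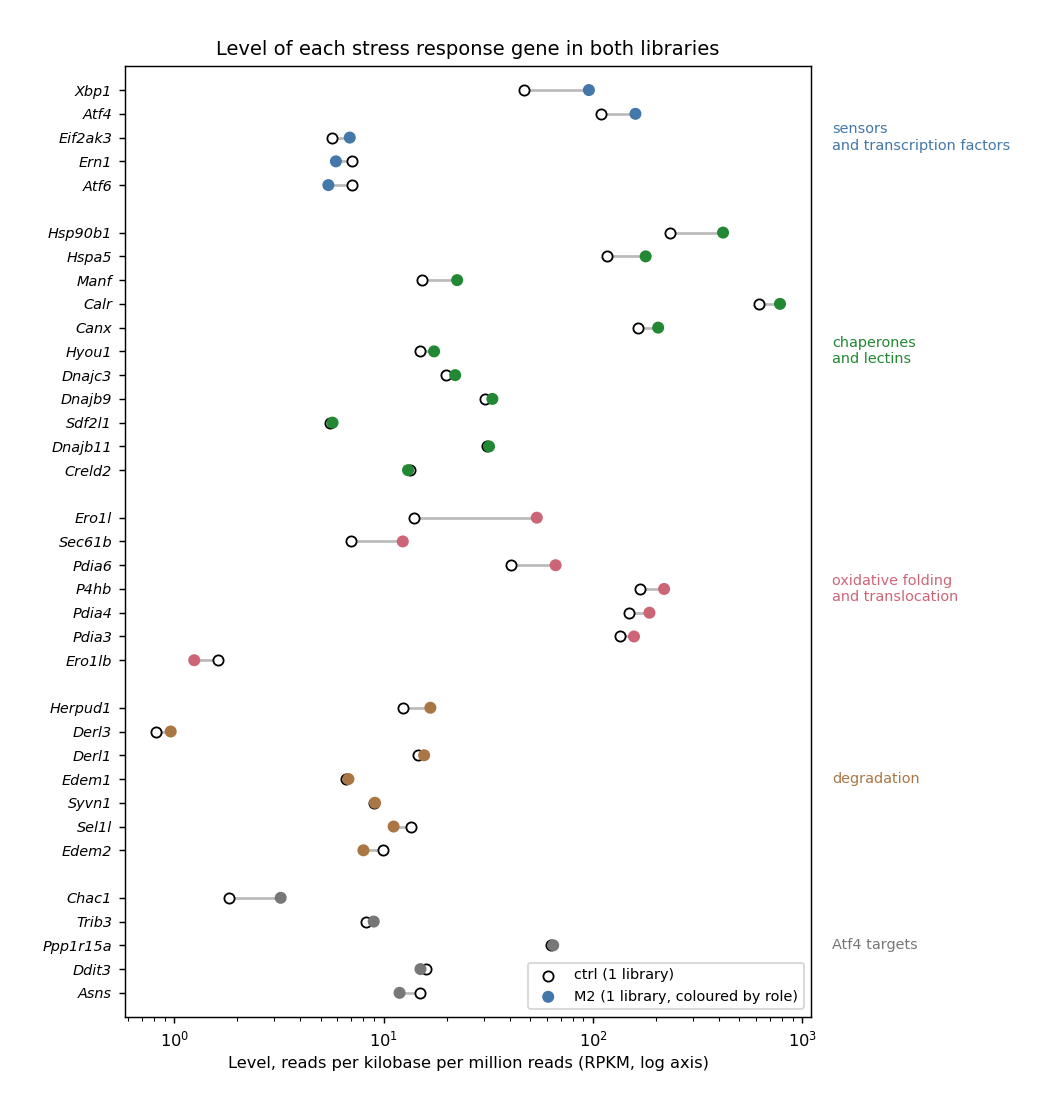
Level of each member in RPKM on a log10 axis, grouped by role, with open circles for the 1 ctrl library and filled circles, coloured by role, for the 1 M2 library. Levels in ctrl run from 0.817 RPKM for Derl3 to 618 RPKM for Calr, and the widest gap between libraries is that of Ero1l, from 14.0 to 53.9 RPKM.

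Oxidative folding held the member with the greatest difference. Ero1l (ERO1 alpha), the oxidase that re-oxidises protein disulfide isomerases and passes electrons to oxygen, had 1701 reads in ctrl and 6854 in M2, or 14.0 and 53.9 RPKM. It rose 3.84-fold, with a log2 fold difference of 1.94 (1.86 to 2.02), higher than 96.7% of all genes tested. The gene lies at chr14:45283092-45318572. Its paralog Ero1lb (ERO1 beta) was scarce, with 189 and 152 reads, or 1.62 and 1.24 RPKM, and a log2 fold difference of -0.38 (-0.70 to -0.07). The ratio of the RPKM of Ero1l to that of Ero1lb was 8.64 in ctrl and 43.3 in M2. Of these paralogs, the ERSE stood before Ero1lb.

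Ero1l is known as a target of the hypoxia-inducible factor. A list of 14 other genes of the hypoxia response, none of them a member, was read beside it. Like the other lists, it was chosen with earlier results of these data known. In that list 11 genes were at least 2-fold higher in M2 and 0 were lower, beside 9.53% and 7.82% of all genes tested. The median log2 fold difference of the list was 1.67. The 4 called genes with the most reads were Pgk1, a glycolytic enzyme (8138 and 37275 reads, 2.13), Ldha, lactate dehydrogenase (10623 and 23494 reads, 1.08), Slc2a1, a glucose carrier (2623 and 6176 reads, 1.17), and Vegfa, the vascular growth factor (934 and 7510 reads, 2.94). The 3 genes not called were Ankrd37 (0.64), Pdk1 (0.40) and Kdm3a (0.19). The part of the hypoxia response in the rise of Ero1l was not tested.

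The protein disulfide isomerases, which Ero1l re-oxidises, had higher levels per length than either oxidase in each library, and all 4 had values above 0. The margin was narrowest for Pdia6 over Ero1l in M2. Pdia6 had 4159 reads in ctrl and 7154 in M2, or 40.4 and 66.3 RPKM, and the greatest log2 fold difference of them at 0.71 (0.66 to 0.77). P4hb, which is also a subunit of collagen prolyl 4-hydroxylase, was at 167 and 219 RPKM (0.39, interval 0.35 to 0.42). Pdia4 was at 149 and 186 RPKM (0.32, interval 0.28 to 0.35), and Pdia3, the partner of Calr and Canx, was at 135 and 157 RPKM (0.22, interval 0.19 to 0.26). The exons of Pdia3, Pdia4 and Pdia6 overlap those of other genes by at most 50 bases each.

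Sec61b, a small subunit of the channel through which proteins enter the ER, had 243 and 452 reads, or 6.96 and 12.3 RPKM. Its log2 fold difference was 0.82, and with so few reads its interval ran from 0.60 to 1.06, across the 2-fold limit. Over the role, 6 of 7 genes were above 0 and the median was 0.39.

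The degradation genes lay close to 0. None of its 7 genes was called, their median log2 fold difference was 0.04, and their summed level was 310 CPM in ctrl and 299.7 CPM in M2. Herpud1, the scaffold that gathers the degradation complex and the member with both ERSE-II and the C/EBP-ATF element, had 789 and 1124 reads, or 12.3 and 16.7 RPKM. Its log2 fold difference of 0.44 (0.31 to 0.57) was the only one of the role with an interval above 0. Sel1l, the adaptor of the ubiquitin ligase Syvn1, had 3162 and 2750 reads (-0.27, interval -0.34 to -0.20). Edem2, a mannosidase that marks glycoproteins for degradation, had 940 and 799 reads (-0.30, interval -0.44 to -0.17).

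The intervals of the other 4 held 0. Syvn1, also called HRD1, had 1178 and 1250 reads (0.02), Edem1 1166 and 1262 (0.04) and the channel protein Derl1 1263 and 1415 (0.09). Derl3, a related channel protein, had only 30 and 37 reads, so its log2 fold difference of 0.22 had an interval of -0.50 to 0.98. The values of Syvn1 and Edem1 turned below 0 under library-total scaling.

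The Atf4 targets showed no common direction. Their median log2 fold difference was 0.03 and their summed level was 273 CPM in ctrl and 272 CPM in M2, while Atf4 itself was at 188 and 275 CPM. Chac1, an enzyme that breaks down glutathione, had 82 and 152 reads, or 1.82 and 3.22 RPKM, and a log2 fold difference of 0.81 whose interval of 0.42 to 1.23 crossed the 2-fold limit. Asns, which makes asparagine, had 1117 and 939 reads, or 14.9 and 11.9 RPKM (-0.32, interval -0.45 to -0.19). Both carry the C/EBP-ATF element, and their values lay on opposite sides of 0.

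The remaining targets had intervals that held 0. Ddit3 (CHOP), a transcription factor of prolonged ER stress, had 747 reads in ctrl and 740 in M2 (-0.08, interval -0.23 to 0.07), and 68 of its exon bases overlap those of Mars on the opposite strand. Trib3, a pseudokinase that CHOP and Atf4 induce, had 482 and 549 reads (0.12, interval -0.06 to 0.30). Ppp1r15a (GADD34), the phosphatase subunit that reverses eIF2 alpha phosphorylation, was the most abundant target at 63.0 and 64.5 RPKM (0.03, interval -0.02 to 0.09).

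The values of the members with the ERSE are given without a test. Their median log2 fold difference was 0.27, beside 0.12 for the members whose promoter had been searched and held none, and their range of -0.38 to 0.83 reached below 0. Hspa5, Syvn1 and Ero1lb, each with 77.8% G and C in the middle of the ERSE, had values of 0.62, 0.02 and -0.38.

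A further 156 genes of the same pathways, in 10 lists that share no gene with the members, were read in the same way, and 153 of them were tested. The other 3 were Ern2 and Pdia2, which had too few reads, and Hm13, which was not matched by name. At least 2-fold, 3 rose and 3 fell, and the median log2 fold difference was 0.08. The background shares at this limit are the 9.53% and 7.82% given above.

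Creb3l1, a factor of the Atf6 kind that is released from the ER membrane by cleavage and is known for collagen secretion, rose from 90 reads in ctrl to 455 in M2 (2.26, interval 1.94 to 2.61). The related factors did not share this value, with Creb3 at 1024 and 1274 reads (0.25), Creb3l2 at 3608 and 2496 reads (-0.60) and Atf6b at 880 and 704 reads (-0.39). The proteases that cut Atf6 had values on either side of 0, -0.39 for Mbtps1 and 0.23 for Mbtps2. The 6 tested genes of this list had a median of -0.08.

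Among 19 other Atf4 targets in stress and transport, 2 rose and 2 fell. The cystine carrier Slc7a11 rose from 131 to 396 reads (1.52, interval 1.24 to 1.82) and the cationic amino acid carrier Slc7a3 from 32 to 101 reads (1.56). Atf3, a stress-induced repressor, fell from 2966 to 895 reads (-1.80, interval -1.91 to -1.69). Stc2, a secreted glycoprotein of calcium and phosphate balance, fell from 9668 to 2572 reads (-1.98, interval -2.04 to -1.92). The list therefore held called genes in both directions, with a median of 0.08.

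The 9 amino acid and one-carbon enzymes that Atf4 induces held no called gene and had a median log2 fold difference of 0.24, and the 13 genes of tRNA charging held none and had a median of 0.08. Of 4 RNAs that Ern1 is known to cut, Pmp22, a membrane protein of myelin, fell 2.82-fold, from 715 to 265 reads (log2 interval -1.71 to -1.30). The other 3 were not called, and their directions differed. Scara3 rose from 286 to 514 reads (0.77, interval 0.57 to 0.99). Bloc1s1, the best known of them, had 705 and 644 reads (-0.20, interval -0.36 to -0.04), and Hgsnat had 2683 and 2597 (-0.12). The median of these 4 was -0.16.

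The machinery of protein entry and glycosylation was the most one-sided of the further lists. Of 31 genes of the translocon, signal recognition and N-glycosylation, 29 were above 0 and 0 were called, with a median log2 fold difference of 0.20 and a summed level of 3522 CPM in ctrl and 4178 CPM in M2. Some of these values lie within the 0.06 by which library-total scaling lowers them. The 27 tested genes of other ER-associated degradation had a median of -0.02, with 11 above 0 and 16 below. The 11 genes of the eIF2 kinases, eIF2 and eIF2B had a median of 0.10, the 18 other ER chaperones and glycan enzymes 0.08, and the 15 other tested disulfide enzymes 0.02. Among the members, the 2 folding roles thus had higher medians (0.22 and 0.39) than degradation (0.04). Among the further genes, entry stood above degradation (0.20 and -0.02), whereas the chaperones and disulfide enzymes (0.08 and 0.02) lay close to it. These lists are of unequal size, and no test was run.

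**Figure D4:**
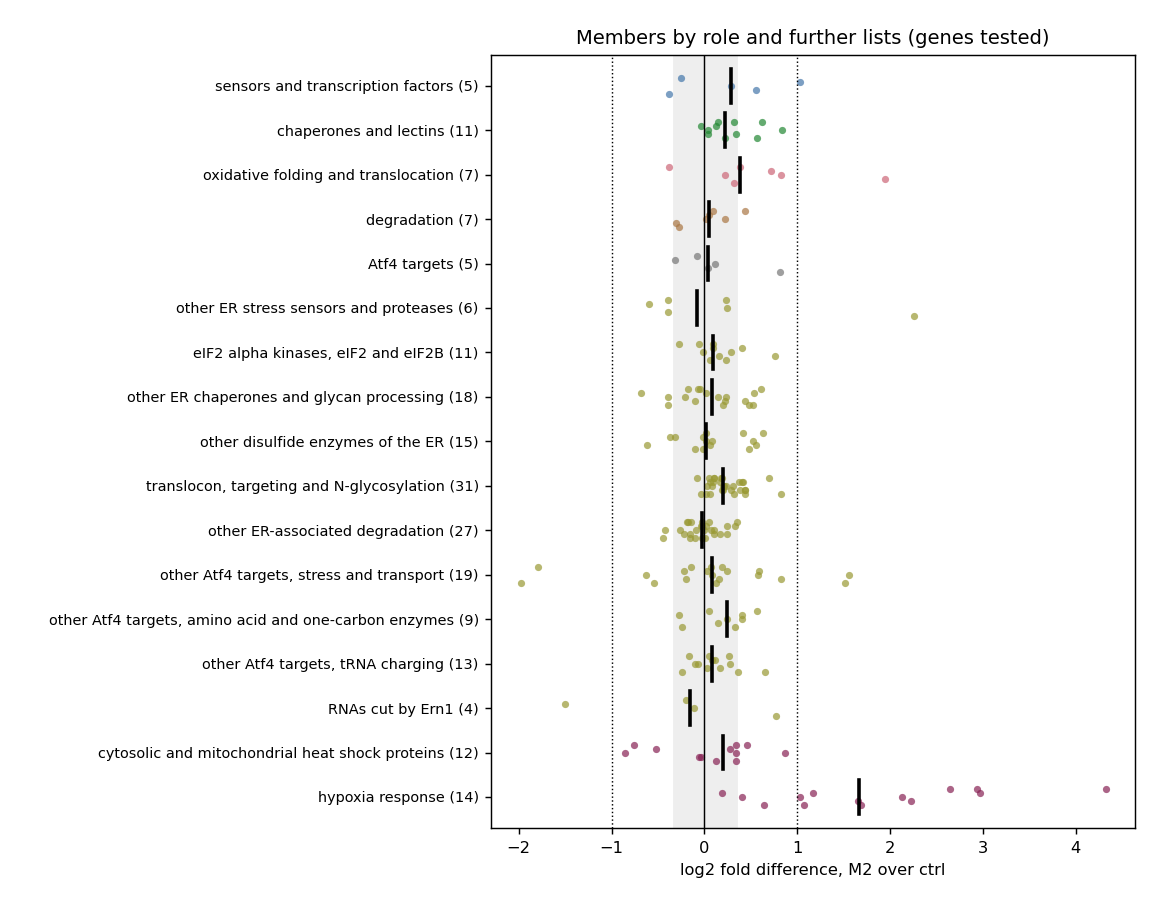
Log2 fold difference of each tested gene, M2 over ctrl, for the members by role and for the further lists. Each point is 1 gene in 1 library against 1 library, black bars are medians, the grey band is the middle 50% of all genes tested, and the dotted lines mark 2-fold. The medians of the pathway lists lie near 0, whereas that of the hypoxia list lies at 1.67.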

How the data were processed

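RNA-seq of 1 ctrl and 1 M2 library was analysed, with groups taken from the sample labels. The authors deposited raw, unnormalized read counts for each gene, together with gene coordinates and a gene length in bases. Per the labels, a SMARTER mRNA kit served for library preparation, and the submitters' processing notes name GRCm38 and mm10. All 35 members overlap the gene of their name in GENCODE M21, 27 with the same start and end, so coordinates are given as GRCm38. The aligner, the counting tool and the use of strand are not given in the sources used here, so reads of overlapping genes cannot be told apart. Exon overlaps with other genes were found for 9 members. For 26 genes the name had become a date, and these were kept unnamed.

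Genes with at least 10 reads summed over both libraries were tested. Scaling used TMM, the trimmed mean of M values, from edgeR 4.0.16 (R 4.3.3), whose factor was 1.02 in ctrl and 0.980 in M2. A pseudocount of 1 was added to the reads, the sum was divided by the scaled library size, and the log2 of M2 over ctrl was taken. CPM and RPKM were computed from the same sizes and the deposited lengths. A gene was called at 2-fold or more, the fold that the study gives for M2 against control. The study also set a limit on the adjusted P, which was not applied to these calls. With 1 library per group no dispersion could be estimated. Intervals (95%, Clopper-Pearson) were taken on the M2 share of a gene's reads and turned into folds. Intervals and floors reflect the counting of reads alone. The sources mention no molecular identifiers, so repeated reads of the same molecule may be counted and the intervals may be too narrow. The floor for a gene without reads was 3 reads, equal to 0.109 CPM for ctrl and 0.104 CPM for M2.

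The rule for named genes took all members, the called genes of each further pathway list (up to 4 with the most reads), and up to 4 markers with the most reads per cell type, of which those of B and plasma cells are given as counts. Any other gene was named after its values were seen. Members and lists were chosen with earlier results of these data known. Medians and counts describe these libraries, since genes are not replicates. Promoter letters came from RefSeq on GRCm38.p6, and elements were searched in Python 3.11.15. The functions were tested on simulated data. A search of the protein ends for the ER retention signal was planned and is not analysed here. Alternatives covered the scaling, the pseudocount, the filter, the fold limit, a length trend and 2 further tests, the binomial test and the exactTest function of edgeR with an assumed variation of 0.2.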

Additional observations from a re-analysis of the deposited data

How the results depend on the processing

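The number of members at least 2-fold higher, 2 as reported, was 1 with the library total in place of TMM and 1 where exactTest under an assumed variation of 0.2 was also required. In both, Ero1l was called and Xbp1 was not. Xbp1 lay at 0.97 under the library total, a log2 fold difference under the 2-fold limit. The number was 7 at 1.5-fold and 0 at 4-fold. The number at least 2-fold lower was 0 under every alternative run. The further pathway genes at least 2-fold apart, 6 as reported, numbered 19 at 1.5-fold and 1 at 4-fold. The median log2 fold difference of oxidative folding and translocation was 0.33 with the library total, which lowers every log2 value by 0.06. With that scaling the values of Dnajb11, Sdf2l1, Syvn1, Edem1 and Ppp1r15a, all within 0.05 of 0, turned negative (Ppp1r15a to -0.02).

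No paired analysis was possible because ctrl and M2 have 1 library each. Leaving out a library was not run for want of a second, and the spread between cultures is not known. Depth limits Derl3, Chac1, Ero1lb, Sdf2l1 and Sec61b, whose intervals are the widest among members.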

Other observations

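The heat shock proteins of the cytosol and mitochondria, a list of 12 genes that shares none with the members, held no gene at 2-fold, and their median log2 fold difference was 0.20. Their values were split. Hspa1a and Hspa1b, the stress-inducible Hsp70 genes, had 3282 and 13717 reads in ctrl and 2038 and 7954 in M2 (log2 fold differences of -0.76 and -0.86), and as near-identical copies they may share reads. Hsp90aa1, the inducible cytosolic Hsp90, had 11854 and 22628 reads (0.86), close to the 0.83 of its ER relative Hsp90b1. The mitochondrial chaperonin genes Hspd1 and Hspe1 had equal values of 0.34.

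The ERSE letters also stood before 25 genes that are not members. Of these 10 were tested, 8 had values above 0 and the median was 0.42. Xlr3b, with 24 and 54 reads, was the 1 gene at least 2-fold higher (1.07), and it has close paralogs. Calr4, a relative of Calr, had 258 and 440 reads (0.70), and Alg12, a mannosyltransferase of N-glycan assembly, had 190 and 263 reads (0.40). Among the further lists, the remaining small subunit of the Sec61 channel, Sec61g, had 364 and 675 reads and a value of 0.82, equal to that of Sec61b, whereas the pore subunit Sec61a1 had 4006 and 4791 reads and a value of 0.19. All genes named in these paragraphs were chosen after their values were seen.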
